A study of Solanum lycopersicum with 3 samples.

Results

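The strongest HSFA1a binding sites that both replicates of an amplified DNA affinity purification sequencing (AmpDAP-seq) experiment called in tomato are described here. A strong site was a replicate 1 peak on a numbered chromosome whose fold enrichment reached 12 and which overlapped, by 1 bp or more, a replicate 2 peak that reached 12 too. Fold enrichment is the height of the stacked tags at the summit of a peak over the local background, each with 1 added, as the peak caller gave it. There were 959 strong sites among 13503 replicate 1 peaks overlapped by a replicate 2 peak, which is 7.10% of the shared peaks. The 24164 replicate 1 and 14606 replicate 2 peaks on the numbered chromosomes were the lists from which they came. Each of the 959 sites had a replicate 2 partner of its own, and none was left out of the values below.

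The study asked where HSFA1a binds tomato DNA. Genomic DNA came from the leaves of 4-week-old Solanum lycopersicum plants of the cultivar M82 kept at 24 °C with 16 h of light a day. The groups were HSFA1a-Halo-tag, with 2 biological replicates, and the Halo-tag alone, with 1 sample, whose peaks were not used here. The tagged protein was made in wheat germ extract and held on beads, and the DNA it met was fragmented and amplified, so that neither chromatin nor native DNA methylation was present. All comparisons are thus between sets of sites within 1 group, and the replicates are the only measure of error.

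Heat shock transcription factors are the proteins through which plant, animal and fungal cells switch on chaperone genes when proteins unfold. They bind DNA as trimers, at heat shock elements made of short GAA blocks in alternating orientation, and more such blocks in a row generally give tighter binding. HSFA1a is a class A member, the class that carries activation domains, and in tomato it is known as a master regulator of the heat response. In an affinity assay on naked DNA, the height of a peak depends on how well the protein holds that fragment and on how many fragments were present. The sequence under each peak and the genes beside it were not analysed here, since they need a genome and annotation of the M82 assembly.

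The fold enrichment of the strong sites had a median of 14.7 in both replicates. It ran up to 27.3 in replicate 1, where the lowest value was 12.004, and up to 31.2 in replicate 2, where the lowest was 12.02. These values chose the sites and are given as a description. The other 12544 shared peaks had medians of 6.43 and 6.63. The number of sites fell steeply with the threshold. There were 652 pairs in which both replicates reached 13, 415 at 14, 145 at 16, 55 at 18, 21 at 20 and 6 at 22, and 2 pairs reached 24. Below the threshold, 1397 pairs reached 11 and 1981 reached 10, so that 12 cut through a continuous distribution and not through a gap.

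The values on both sides of the threshold lay close together. The last site inside it, on chromosome 7 at positions 16205351 to 16205670, reached 12.0043 in the replicate 1 list and 15.2 in that of replicate 2. The site before it, on chromosome 1 at 60501575 to 60501840, had 12.0049 and 12.7, and the one before that, on chromosome 4 at 27916983 to 27917282, had 12.009 and 14.3. The first pair outside, on chromosome 3 at 14395793 to 14396060, stood at 12.7 in replicate 1 but at 11.9995 in replicate 2. The next, on chromosome 10 at 26564951 to 26565224, had 11.9906 and 12.97, and the third, on chromosome 9 at 39827272 to 39827742, had 14.2 and 11.9893. In each of these 6 pairs a single replicate sat at the threshold while the other was higher.

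Many peaks passed the threshold in 1 replicate alone. Of 1584 replicate 1 peaks with a fold enrichment of at least 12 (6.56% of its list), 60.5% were strong sites, 620 were shared with a weaker replicate 2 peak and 5 had no replicate 2 peak. Of 1489 replicate 2 peaks (10.2% of its list), 64.4% were strong sites, 530 were shared with a weaker replicate 1 peak and 0 were unshared, which allows up to 3 by counting error. The 620 peaks had a median of 13.2 in replicate 1 and of 10.2 in replicate 2, and the 530 peaks had 10.5 in replicate 1 and 13.1 in replicate 2. For 534 of the 620, the 95% Poisson interval of the replicate 2 value reached 12. For 294 of the 530, the replicate 1 interval did. These intervals hold the background fixed and cover counting error only. On the same basis, 592 strong sites had a replicate 1 interval wholly above 12, 319 had a replicate 2 interval wholly above it, and 247 (25.8%) had both. At the remaining strong sites the interval of 1 or both replicates reached down to 12.

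**Figure D1:**
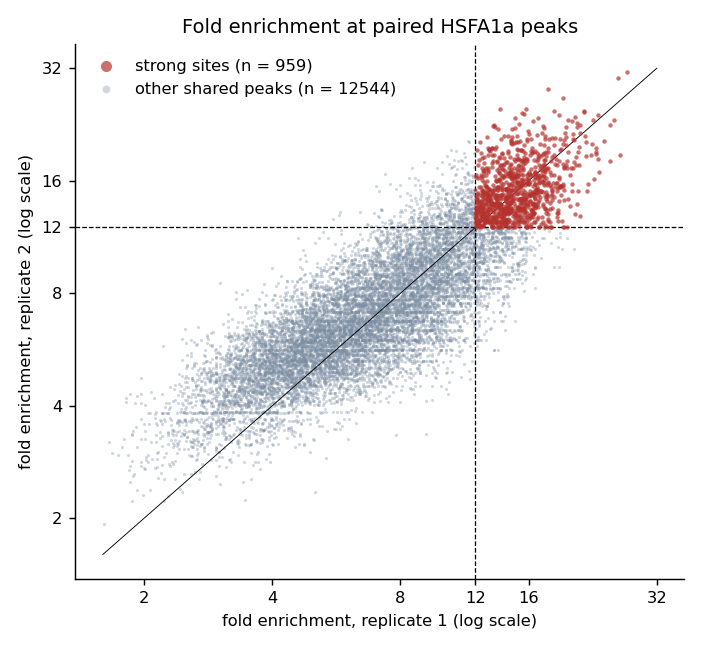
Fold enrichment of each shared pair in replicate 1 (horizontal, log scale) and replicate 2 (vertical, log scale), with strong sites in red and other shared peaks in grey; dashed lines mark 12 and the solid line marks equal values. The 959 strong sites fill the upper right corner, up to 27.3 in replicate 1 and 31.2 in replicate 2, with no gap at the threshold.

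The number of tags behind these values could be recovered from the deposited fold enrichment and significance. At the summit of a strong site the median pileup was 162 tags in replicate 1 and 47 in replicate 2, against 83.4 and 24 tags at the other shared peaks. The strong sites thus had a pileup 1.94 times that of the others by replicate 1 and 1.96 times by replicate 2, with a mean of 1.95 ± 0.0121 (SD, n = 2). Pileup is part of the ratio that defined the sites in both replicates, so this difference is a description and was not tested. The lowest pileup at a strong site was 97.1 tags in replicate 1 and 31 in replicate 2. The replicate 1 pileups are on the scale to which the peak caller brought that library. With fewer tags at its summits, replicate 2 had the wider intervals.

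The local background was lower at the strong sites. It had a median of 9.52 tags in replicate 1 and 2.19 in replicate 2, against 11.9 and 2.68 at the other shared peaks, or 0.803 and 0.817 of their level. The lowest background that the caller allowed was found at 19.6% of strong sites in replicate 1 (188 of 959, 95% Wilson interval 17.2% to 22.2%) and at 18.7% in replicate 2. Among the other shared peaks it was found at 10.7% and 10.4%. Split into 10 equal classes by replicate 1 background, the shared peaks of class 2 held the largest share of strong sites, 13.8%, while class 8 held 4.30% and class 9 held 0.815%. In class 10, where the background was over 21 tags, there were 0. Background is part of the ratio that defined the sites, so these differences are a description and were not tested. The background of replicate 1 and that of replicate 2 had a Spearman rho of 0.956 over the 959 strong sites. The ratios of background in the replicates are therefore not independent measures.

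On each chromosome sites were ranked by the lower of their 2 fold enrichments, and the first was taken as the leading site. The highest of all lay on chromosome 4 at positions 65765796 to 65766094 of the replicate 1 list, with 222 tags over a background of 7.16 in replicate 1 and 82 tags over 1.66 in replicate 2. Its fold enrichment was 27.3 (95% Poisson interval 23.9 to 31.1) in replicate 1 and 31.2 (24.9 to 38.6) in replicate 2, and its summits lay 2 bp apart. The second, on chromosome 3 at 6992305 to 6992621, had 26.0 (22.7 to 29.6) and 30.2 (24.1 to 37.5). For both sites the intervals of the replicates overlapped.

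The leading site of chromosome 5, at 18277454 to 18277725, reached 23.3 by replicate 1 and 23.9 by replicate 2. That of chromosome 8, at 54580051 to 54580332, had 25.4 and 23.3, and that of chromosome 9, at 66682245 to 66682801, had 21.6 and 24.6. The chromosome 9 site was also among the widest, with 557 bp in replicate 1 and 292 bp in replicate 2. On chromosome 12 the leading site lay near the start of the sequence, at 412815 to 413080, with 21.2 and 22.5, and both replicates placed its summit on the same base.

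The remaining leading sites were lower. The site of chromosome 6 reached 20.4 by replicate 1 and 21.3 by replicate 2 at 52090169 to 52090491, close to the last peak of that chromosome. Chromosome 10 had 20.4 and 20.7 at 12331847 to 12332124, and chromosome 11 had 24.04 and 20.4 at 11588571 to 11588903. Chromosome 2 had 21.02 and 19.6 at 44515783 to 44516061. Chromosome 7 had 19.0 and 19.5 at 67750183 to 67750458, and chromosome 1 had 23.1 and 19.2 at 16724677 to 16724970. Although chromosome 1 was the longest, its leading site ranked 32nd of all strong sites by the smaller value, and that of chromosome 7 ranked 35th.

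Within the strong sites, the replicates ordered the sites less well than over the full range. On the log2 scale the fold enrichments of the replicates gave Pearson's r = 0.411 and Spearman's rho = 0.351 over the 959 sites, against 0.820 and 0.813 over all 13503 pairs. These are correlations across sites of a pair of libraries whose local backgrounds are themselves correlated, and the threshold narrows the range of the first. Of the 50 highest strong sites of replicate 1, 16 were among the 50 highest of replicate 2, and of the 10 highest, 2. The log2 ratio of replicate 2 to replicate 1 had a median of 0.01 and an SD of 0.25, and counting error alone gave a median SD of 0.24 per site. In 902 sites (94.1%) the replicates differed by less than 0.5 on the log2 scale, and at 0 sites did they differ by 2-fold or more. The rule, which needs 12 in both replicates, limits how far a pair can differ, so this spread is a description of the chosen sites. Over the other shared peaks the SD was 0.39.

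On the deposited scale neither replicate was the higher at clearly more of the strong sites. Replicate 2 was the higher at 51.8% of them (95% Wilson interval 48.7% to 54.97%), against 60.02% of the other shared peaks (59.2% to 60.9%). The rule used both values, and pairs that reached 12 in 1 replicate alone fall among the others. These shares are therefore a description and were not tested. On pileup over background without the added 1, replicate 2 was the higher at 95.2% of strong sites and at 84.1% of the others. The added 1 weighs more on the smaller background of replicate 2. The largest ratio towards replicate 2 was on chromosome 1 at 43025307 to 43025583, with 13.7 by replicate 1 and 24.9 by replicate 2, and its summits were 1 bp apart. The largest ratio towards replicate 1 was on chromosome 3 at 39497766 to 39498032, with 19.7 by replicate 1 and 12.02 by replicate 2. At the chromosome 1 site the 95% Poisson intervals, 11.996 to 15.5 and 20.5 to 29.97, did not overlap. At the chromosome 3 site they were 16.8 to 23.0 and 8.29 to 16.9 and overlapped only at their ends.

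Strong sites were the wider peaks in both lists. Their median width was 283 bp in replicate 1 (quartiles 268 and 306) and 229 bp in replicate 2 (215 and 248), against 241 bp (211 and 268) and 181 bp (156 and 210) for the other shared peaks. The strong sites were thus 1.17 times as wide by replicate 1 and 1.27 times by replicate 2, with a mean of 1.22 ± 0.0643 (SD, n = 2). Width comes from the same pileups as the fold enrichment that chose the sites, so no test was made. Widths were also more even, since the range from the first to the third quartile was narrower in both replicates. No strong site had the shortest width that was called, 152 bp in replicate 1 and 134 bp in replicate 2, while 0.367% of the other shared peaks did in replicate 1 and 5.52% in replicate 2. For replicate 1 the 95% Wilson interval of the strong sites, up to 0.399%, included the share of the others. Over the strong sites, width and fold enrichment had a Spearman rho of 0.150 in replicate 1 and 0.336 in replicate 2, given as a description.

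The narrowest strong site in replicate 1, on chromosome 7 at 3855865 to 3856090, was 226 bp wide in replicate 1 and 183 bp in replicate 2, with a fold enrichment of 14.1 and 13.2. The widest, on chromosome 1 at 62062652 to 62063272, was 621 bp wide in replicate 1 but 227 bp in replicate 2, with 16.6 and 16.4. In that case replicate 2 had another peak with its summit 313 bp away, so 1 long replicate 1 peak stood beside 2 replicate 2 peaks. Only 42 strong sites (4.38%) were 400 bp wide or more in replicate 1, against 2.04% of the other shared peaks.

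Both replicates placed the summits of strong sites at nearly the same base. The summits of a pair lay a median of 7 bp apart (quartiles 3 and 12) at strong sites, against 10 bp (4 and 20) at the other shared peaks. They lay within 10 bp at 69.8% of strong sites (95% Wilson interval 66.8% to 72.6%) and 51.1% of the others (50.2% to 52.0%), and within 25 bp at 96.4% and 82.8%. At 52 strong sites the base was the same. The distance exceeded 50 bp at a single strong site, on chromosome 3 at 54202278 to 54202534, where it was 51 bp and the fold enrichment was 13.7 by replicate 1 and 12.02 by replicate 2. The replicate 1 summit fell inside the replicate 2 peak at all 959 strong sites, and the replicate 2 peak lay wholly inside the replicate 1 peak at 93.1% of them, against 81.9% of the others. The part common to both peaks was a median of 0.806 of their joined length at strong sites and 0.756 at the others.

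The summits lay in the middle of the peaks. In replicate 1 the summit of a strong site stood at a median of 0.496 of the peak's width from its left edge, with quartiles of 0.478 and 0.519, against 0.495, 0.456 and 0.534 for the others. The replicate 2 summit lay to the left at 50.4% of strong sites and to the right at 44.2%, with a median shift of 1 bp to the left. For the other shared peaks these shares were 49.5% and 46.9%. Summits come from the same pileups as the fold enrichment, so the smaller distance is a description and was not tested.

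**Figure D2:**
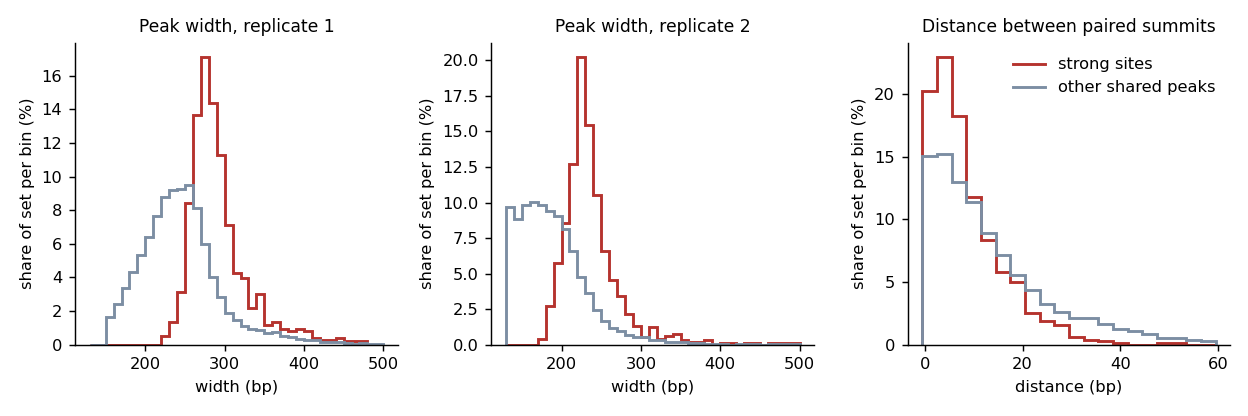
Distribution of peak width in replicate 1 and in replicate 2 (bp, bins of 10 bp) and of the distance between paired summits (bp), each as a percentage of its set, for strong sites (red) and other shared peaks (grey); the few peaks beyond the axes are not drawn. Median widths were 283 bp and 229 bp for strong sites against 241 bp and 181 bp for the others, and median distances were 7 bp and 10 bp.

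Split by the smaller fold enrichment of the pair, median width rose without a step at 12. The median summit distance was 15.5 bp in pairs under 4, and 7 bp both at 10 to 12 and at 12 to 14. Median replicate 1 width was 199.5 bp in pairs under 4, 247 bp at 6 to 8, 273 bp at 10 to 12, 280 bp at 12 to 14 and 295 bp at 20 or more. Summits lay within 10 bp in 36.7% of pairs under 4, in 60.8% at 8 to 10 and in 63.7% at 10 to 12. The share was 70.2% at 12 to 14, 68.9% at 14 to 16 and 68.5% at 16 to 20. Among strong sites the median distance stayed between 5 and 7 bp in every class. Median replicate 1 background was 16.0 tags in pairs under 4, 10.6 at 10 to 12, 9.12 at 14 to 16 and 7.60 at 20 or more, and in replicate 2 it was 3.68, 2.47, 2.12 and 1.83 tags. The class of 20 or more held 21 pairs.

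Strong sites were found on all 12 numbered chromosomes, in numbers from 48 on chromosome 6 to 97 on chromosome 9. Taken over the covered extent of 802 Mb there were 1.20 per Mb. The density was lowest on chromosome 11 (0.908 per Mb), chromosome 6 (0.920) and chromosome 1 (1.02), and highest on chromosome 7 (1.32), chromosome 9 (1.41) and chromosome 2 (1.49). As a share of the shared peaks of the same chromosome, strong sites made up 8.85% on chromosome 2 (82 of 927, 95% Wilson interval 7.18% to 10.8%), the only chromosome whose interval lay above the genome-wide 7.10%. That interval is 1 of 12, none was adjusted for their number, and the genome-wide value includes chromosome 2. The share was 7.50% on chromosome 7 (90 of 1200) and lowest on chromosome 11, with 5.68% (54 of 950, 4.38% to 7.34%). Chromosome 1 had 6.15% (95 of 1544, 5.06% to 7.46%) and chromosome 6 had 6.24% (48 of 769, 4.74% to 8.18%). The intervals of chromosomes 2 and 11, the extremes, overlapped between 7.18% and 7.34%. Chromosome 9, the densest in shared peaks, had 7.43%.

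By chromosome, the median fold enrichment of the strong sites lay between 14.2 on chromosome 4 and 15.3 on chromosome 6 in replicate 1, and between 14.2 on chromosome 10 and 16.4 on chromosome 6 in replicate 2. These medians are of values that the rule holds at 12 or more. The median replicate 1 background was lower at strong sites than at the other shared peaks on every one of the 12 chromosomes, with the widest gap on chromosome 6 (9.20 against 12.2 tags) and 9.80 against 11.2 tags on chromosome 9.

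**Figure D3:**
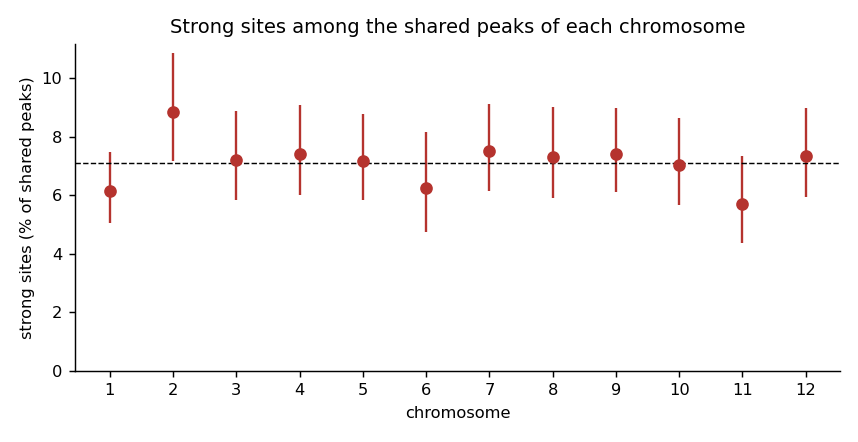
Strong sites as a percentage of the shared peaks on each numbered chromosome, with 95% Wilson intervals; the dashed line is the genome-wide 7.10%. The points run from 5.68% on chromosome 11 to 8.85% on chromosome 2.

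Along the chromosomes the strong sites followed the other shared peaks. The outer 20% at each end held 39.6% of strong sites (380 of 959, 95% Wilson interval 36.6% to 42.8%) and 37.8% of the others (36.9% to 38.6%), and the intervals overlapped, with no test made here or by chromosome. With each chromosome cut into 10 equal parts, strong sites made up 6.53% of the shared peaks in the first part and 8.14% in the last. They made up 8.38% in part 9, 7.95% in part 3 and between 6.57% and 6.87% in parts 4 to 8. The outer share differed between chromosomes, from 30.9% of strong sites on chromosome 10 (25 of 81, 21.9% to 41.6%) to 56.3% on chromosome 6 (27 of 48, 42.3% to 69.3%). On the same chromosomes the other shared peaks had 39.2% and 43.4%. On chromosome 12 the outer share was 48.2% of strong sites (37.8% to 58.8%) and 37.0% of the others, and on chromosome 5 it was 43.7% and 34.1%. Each of these intervals for strong sites included the value of the other shared peaks, except on chromosome 12. These are the chromosomes with the largest differences, and the intervals were not adjusted for the number of chromosomes. On the rest the shares lay closer, the furthest apart being 41.25% and 36.8% on chromosome 8. Of the 21 sites with a fold enrichment of at least 20 in both replicates, 66.7% lay in the outer parts (45.4% to 82.8%). By the smaller value of the pair, the outer share was 40.4% at 12 to 14, 35.9% at 14 to 16 and 39.5% at 16 to 20. It thus did not rise with strength over these classes. Chosen by −log10 q in place of fold enrichment, 959 sites had an outer share of 44.1%, against 37.4% of the rest.

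Peaks of any strength stood about as near to strong sites as to other shared peaks. Another replicate 1 peak had its summit within 10 kb of 51.1% of strong sites (95% Wilson interval 47.9% to 54.2%) and of 52.4% of the others (51.5% to 53.2%). In replicate 2 these shares were 37.4% (34.4% to 40.5%) and 37.6% (36.7% to 38.4%). The median distance to the nearest replicate 1 summit was 9557 bp from a strong site and 9185 bp from another shared peak. Within 50 kb on either side there was a median of 3 other replicate 1 summits in both sets. The most isolated strong site, on chromosome 5 at 4778013 to 4778292, had its nearest replicate 1 summit 130104 bp away, and its fold enrichment was 14.6 in replicate 1 and 16.3 in replicate 2.

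Strong sites had a strong neighbour more often than the other shared peaks had one. The difference was not tested. Another strong site lay within 10 kb of 56 of the 959 strong sites, 5.84% (95% Wilson interval 4.52% to 7.51%), against 375 of the 12544 other shared peaks, 2.99% (2.71% to 3.30%), a ratio of 1.95. Both shares refer to the same list of strong sites. Within 50 kb the shares were 18.1% (15.8% to 20.7%) and 12.4% (11.8% to 12.98%), and within 100 kb they were 28.8% and 22.6%. By class, the share was 5.70% in strong sites at 12 to 14, 5.93% at 14 to 16, 6.45% at 16 to 20 and 4.76% (1 of 21) at 20 or more. In the other shared peaks it was 4.50% (3.39% to 5.95%) at 10 to 12, 2.74% at 8 to 10, 3.43% at 6 to 8, 2.71% at 4 to 6 and 2.37% under 4, so it did not climb at every step. Leaving out each chromosome in turn gave 5.01% to 6.25% for strong sites and 2.82% to 3.12% for the others. These intervals take sites as independent, which neighbours are not, and cover counting error only.

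The difference was smaller when strength was ranked otherwise. The 959 pairs with the largest smaller −log10 q, of which 488 were strong sites, had another of these 959 within 10 kb in 3.55%. Of the rest, 3.00% had one of them that near, so the list of neighbours changed along with the ranking. With both sets limited to a replicate 1 background no higher than the median of the strong sites, the shares were 6.67% for 480 strong sites and 3.81% for the others. This limit was added after the data were seen, and background is part of the ratio that chose the sites. Within 1 kb of a strong site there was another strong site at 0 of 959, which allows a share of up to 0.313%, while 32 other shared peaks (0.255%) lay that near to a strong site.

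**Figure D4:**
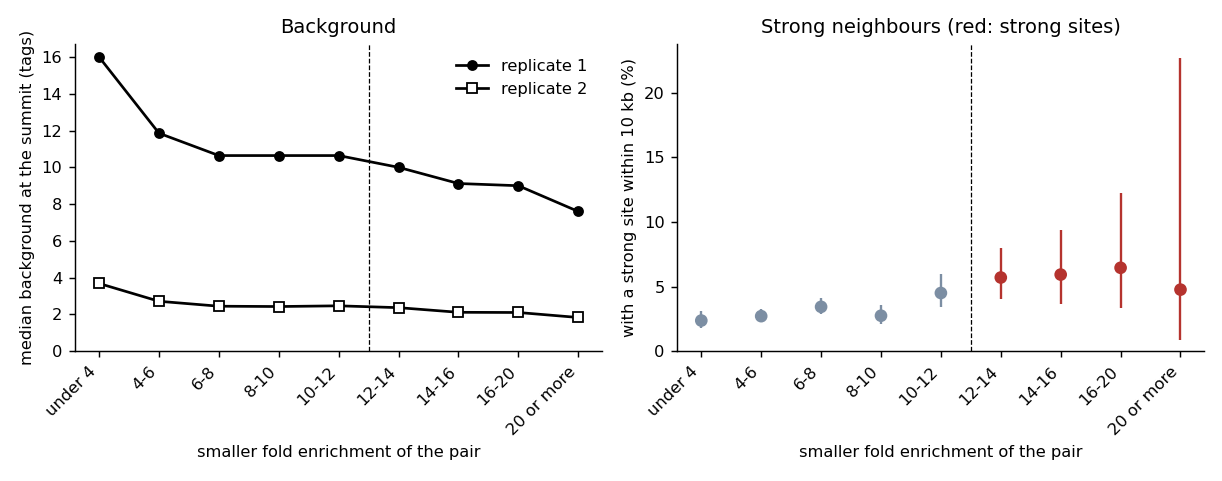
Shared pairs split by the smaller fold enrichment of both replicates. Left, median background at the summit in tags for each replicate; right, percentage of pairs with a strong site within 10 kb, with 95% Wilson intervals, strong sites in red and other shared peaks in grey, and a dashed line at 12. The percentage is 2.37% under 4, 3.43% at 6 to 8, 2.74% at 8 to 10, 4.50% at 10 to 12, 5.70% at 12 to 14 and 4.76% at 20 or more.

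The 56 neighbouring strong sites formed 26 groups on 10 chromosomes, and the other 903 stood alone. There were 23 groups of 2, 2 groups of 3 and 1 group of 4. Chromosome 10 held 12 of the 56 sites, chromosomes 2 and 7 held 8 each, and chromosomes 6 and 11 held none. In 20 of the 26 groups no other replicate 1 peak lay between the strong sites. Next neighbours in a group differed by a median of 0.18 on the log2 scale in fold enrichment in each replicate, over 30 such pairs. The rule holds all strong sites in a narrow range (replicate 1 quartiles 13.4 and 16.5). Strong sites that are not neighbours were not compared in this way.

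The group of 4 lay on chromosome 10 with summits at 35161314, 35165673, 35168884 and 35170667, a span of 9353 bp. Their fold enrichment was 14.96, 16.9, 16.0 and 16.2 in replicate 1 and 16.4, 14.2, 13.6 and 12.3 in replicate 2. A group of 3 on chromosome 9 had summits at 65875885, 65879339 and 65881626, with 12.4, 13.6 and 15.3 in replicate 1 and 13.2, 15.1 and 19.4 in replicate 2. In this group both replicates gave the same order. The closest strong sites of all had summits 1370 bp apart, on chromosome 12 at 45429178 to 45429451 and at 45430550 to 45430826, with 12.4 and 15.1 in replicate 1 and 16.3 and 15.9 in replicate 2. The 100 kb window with most strong sites held 4, on chromosome 7 with summits between 8730537 and 8803499, and all 4 were near the threshold, with values from 12.2 to 14.1 in replicate 1 and from 12.3 to 12.6 in replicate 2. The other window with 4 was the chromosome 10 group.

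The spacing between strong sites was uneven. Over all pairs of strong sites with summits at most 20 kb apart, in a group or not, 53 in number, 9 had a distance of 5 to 6 kb. The other 1 kb steps held between 0 and 5, with a median of 2. The step of 5 to 6 kb was singled out after the counts were seen. A narrower range chosen after the distances were seen, 4.8 to 5.4 kb, held 11 of the 53 pairs (20.8%). It held 24 of 720 pairs of a strong site with another shared peak (3.33%) and 201 of 4865 pairs of other shared peaks (4.13%). Among the other shared peaks the fullest step was 2 to 3 kb, with 433 pairs against a median of 232 in steps other than 5 to 6 kb. The step from 5 to 6 kb held 291 of their pairs, against 275 and 261 in the steps beside it. In steps of 250 bp, 5 to 5.25 kb held 103 pairs, against 66 and 69 in the steps beside it. More pairs lay at 2 to 2.25 kb (159) and at 2.5 to 2.75 kb (134).

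The 11 pairs comprised 22 sites on 6 chromosomes, with no site in more than 1 pair. Their distances in replicate 1 ran from 4834 to 5377 bp with a median of 5198 bp, and replicate 2 gave distances that differed from these by at most 47 bp. On chromosome 1 the summits at 75139716 and 75144760 were 5044 bp apart in replicate 1 and 5035 bp in replicate 2, with a fold enrichment of 17.5 and 16.0 in replicate 1 and 18.2 and 16.3 in replicate 2. On chromosome 4 the summits at 9038547 and 9043745 were 5198 bp apart, with 13.98 and 15.8 in replicate 1 and 18.4 and 20.7 in replicate 2. On chromosome 10 those at 18402315 and 18407541 were 5226 bp apart, with 14.6 and 15.2 in replicate 1 and 12.4 and 12.9 in replicate 2. In 9 of the 11 pairs, these 3 included, both replicates gave the sites of the pair the same order. Other peaks lay between the sites of some pairs, as in the group of 4 on chromosome 10. Over the 22 sites fold enrichment ran from 12.2 to 19.3 in replicate 1 and from 12.02 to 20.7 in replicate 2. What lies at these positions in the genome was not analysed here.

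**Figure D5:**
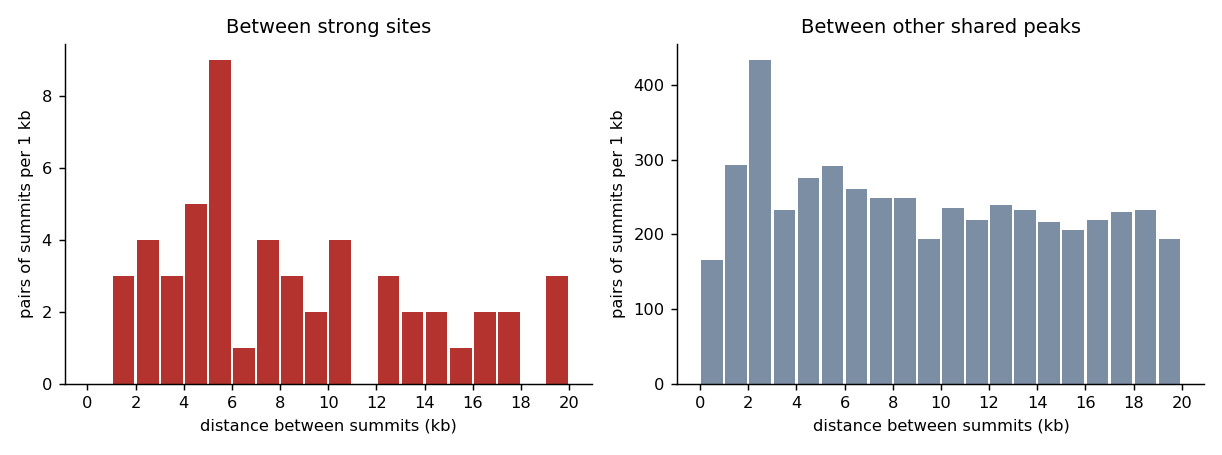
Number of pairs of summits in each 1 kb step of distance, up to 20 kb, between strong sites (left, red) and between other shared peaks (right, grey); the vertical scales differ. Between strong sites the step from 5 to 6 kb holds 9 pairs and no other step holds over 5, while between other shared peaks the fullest step is 2 to 3 kb with 433.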

How the data were processed

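Peaks were called by the authors in each HSFA1a-Halo-tag library separately, at a q-value of 0.05. The submitters' notes name Trimmomatic 0.38, Bowtie2 2.3.5, SAMtools 1.9 and MACS2 2.2.7.1. The control and the handling of duplicates for DAP-seq are not given in the sources used here. The deposited fold enrichment is a ratio of pileup to background at the summit, each with 1 added. The deposited −log10 p and −log10 q are those of the summit, and in each list 99.99% of the deposited scores equal the −log10 q after multiplication by 10 and removal of decimals. Positions are given from 1 on the M82 assembly.

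Each replicate 1 peak was paired with that overlapping replicate 2 peak whose summit was closest. Pileup and background were solved from fold enrichment and −log10 p with the formulas of MACS2, which fitted 100% of summits (whole tags in replicate 2, and whole tags times 0.981 in replicate 1). The steps were tested on simulated data. The extent of a chromosome was its largest peak end. Sites were named by rule: the leading site of each chromosome, 3 pairs on each side of the threshold, and extremes of width, summit distance, ratio and neighbourhood. Groups of 3 and 4 and the spaced pairs were named after their values were seen. The sites and measures were chosen with earlier results of these data known. No test was made, because the values of the rule cannot be tested, the libraries form 1 group and sites are not replicates. Python 3.11.15, numpy 2.4.6, scipy 1.17.1, pandas 2.3.3 and matplotlib 3.10.9 were used.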

Additional observations from a re-analysis of the deposited data

How the results depend on the processing

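For 8 results, 64 alternatives were computed, and 45 moved the value by less than the spread between replicates, its Wilson interval or, for the number of sites, 1.5 times. Some of these could not move. Strong summits lay at most 51 bp apart, so a limit of 100 bp kept the same strong sites. Widths of a single replicate define the spread they were held against. That spread, 229 to 283 bp, was wider than the difference between the sets (256 against 211 bp, means of both medians). The count of 45 is thus not a measure of robustness. The number of strong sites was 1981 at a threshold of 10, 261 at 15 and 1938 with a pileup over background of at least 12 without the added 1, and it lay between 1489 and 1584 in a single list. The top 10% of each list gave 1196, a reciprocal overlap of 50% gave 950, and summits within 100 bp or all sequences gave 959. Summits lay within 10 bp at 66.6% of sites with at least 10 and at 65.4% without the added 1, against 69.8%. The outer share was 44.1% by ranks of −log10 q, 19.2% for the outer 10% and 61.0% for the outer 30%, where the others had 18.4% and 58.6%. The share with a strong neighbour within 10 kb was 9.29% (others 5.95%) with at least 10, 1.53% (0.800%) with at least 15, 3.55% (3.00%) by −log10 q and 9.49% (5.51%) without the added 1. It was 0% within 1 kb and 18.1% within 50 kb. Under each of these settings the neighbours were the sites chosen under it, and a longer or shorter list raises or lowers this share by construction. Another peak of any strength, as the mean of both lists, was found for 4.90% within 1 kb and 89.99% within 50 kb, against 44.3% within 10 kb. Replicate 2 was the higher at 95.2% of sites without the added 1, against 51.8%. Values of each replicate alone were given in the report: median width lay between 229 and 283 bp, the share with any neighbour within 10 kb between 37.4% and 51.1%, and the ratio of pileups between 1.94 and 1.96. The limit on background was added after seeing the data. No paired analysis was possible because a single group enters every comparison. Replicate 2, with 47 tags at the median strong summit, limits the precision of the order and of membership near the threshold.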

Other observations

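Outside the numbered chromosomes, 0 pairs reached a fold enrichment of 12 in both replicates. Replicate 1 had 12 peaks there, the highest at 10.1. Replicate 2 had 326, of which 2 reached 12, both on contigs, with 13.9 (36 tags) and 12.2 (33 tags), and a replicate 1 peak overlapped the lower of them.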
